A study of Mus musculus with 6 samples.

Results

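The genes described here are the 44 of the lipogenesis, triglyceride synthesis and lipid droplet programme, taken as those rows of the deposited gene table whose symbol is on the list of members. All 44 were found among the 23282 genes of the table. The libraries came from primary hepatocytes of the C57BL6/N mouse strain, prepared by collagenase perfusion of the liver and left for 3 h to attach. Control cultures (3 samples) then received no treatment, and IL-1β cultures (3 samples) received recombinant IL-1β protein for 24 h. The series title calls the cells metabolically stressed, but no sorting step, sex, age or diet is given for them in the sources used here. The labels state no IL-1β concentration, although the study gives one for recombinant proteins on primary hepatocytes without naming the sequenced cultures. A single procedure of isolation and plating is described for all cultures. RNA was read from the 3′ end of each mRNA with the QuantSeq kit, and the values below are CPM, the read counts of a gene rescaled for library size with TMM factors, with IL-1β compared against control by edgeR's quasi-likelihood test and Benjamini-Hochberg adjustment over the 11657 genes with enough counts. A gene is called higher or lower where its adjusted p is below 0.05, and log2 fold changes are IL-1β over control. The labels do not say whether the cultures came from separate animals, so the p-values measure only the spread between these samples.

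Hepatocytes make fatty acids from cytosolic acetyl-CoA, elongate and desaturate them, join them to glycerol as triglyceride, and either store the triglyceride in droplets coated by perilipins or load it onto very low density lipoprotein. SREBP1 and ChREBP are the transcription factors best known for switching on this programme, the former after insulin and the latter after carbohydrate. Lipases such as ATGL release the stored fatty acids again, and acyl-CoA synthetases activate them for re-esterification, membrane synthesis or oxidation.

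Total counts per library lay between 9538741 and 11105408, so that 3 counts, taken as the limit of detection, corresponded to 0.268 to 0.320 CPM. These limits cover counting error only. Of 10 hepatocyte markers, 9 were in the table, and their summed level was 20961 to 21197 CPM in the controls and 17000 to 17940 CPM after IL-1β, with 1 called higher and 5 lower of 8 tested. Summed macrophage markers were 246 to 276 CPM against 251 to 284 CPM, with none of 9 tested called in either direction. The stellate and fibroblast markers summed to 21.2 to 25.1 CPM against 22.3 to 27.9 CPM (0 of 2 tested called), the endothelial markers to 73.5 to 81.7 CPM against 72.7 to 77.4 CPM (3 of 7 tested called, 1 of them higher), and the cholangiocyte markers to 315 to 329 CPM against 236 to 239 CPM (1 of 2 tested called, lower). The cholangiocyte sum moved with Spp1 alone, whose mean was 189.6 CPM in the controls and 82.7 CPM after IL-1β, while Sox9 was at 134 and 154 CPM and Krt19, Krt7, Epcam and Cftr were near 0. The neutrophil markers summed to at most 0.403 CPM in the controls and to 2.35 to 5.20 CPM after IL-1β, with S100a8 the 1 gene tested, called higher, and S100a9, Mpo, Elane and Retnlg at 0 in every library. Of the adipocyte markers, Adipoq, Lep, Plin1 and Retn were at 0 in every library, and the list summed to 3.13 to 5.54 CPM against 2.24 to 5.29 CPM (0 of 1 tested called). Alb made up most of the hepatocyte sum, averaging 16183 CPM without IL-1β and 14089 CPM with it (log2 fold change -0.20). Ahsg, Ttr, Apoa1 and Cyp2e1 were also called lower (-1.39, -0.35, -0.33 and -0.26). Fga was called higher (0.43), and Cps1 and Hpd were not called (-0.36 and -0.041). Whether IL-1β acted on these marker genes themselves was not tested. The part of the hepatocyte marker shift in the results below was not tested either. In bulk RNA fewer cells of a type and less RNA per cell cannot be told apart.

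Genes of this programme were called in both directions after IL-1β. Of the 44 genes, 39 had enough counts to be tested, and 16 of them were called (41.0%), against 13.4% of all genes tested. Dgat2, Acss2, Acaca, Fasn, Elovl6, Acsl3 and Acsl4 were higher (7 of 39, 17.9%, against 6.97% of all genes), while Mlxipl, Scd1, Fads1, Elovl5, Lpin2, Plin2, Plin5, Cideb and Acsl5 were lower (9 of 39, 23.1%, against 6.44%). The median log2 fold change of the 39 was 0.0032, with 20 above 0 and 19 below, and that of all genes tested was -0.0018. Taken without sign, the median was 0.30 for the 39 genes and 0.16 for all genes. The groups did not overlap in 21 of the 39 genes, against 28.2% of all genes. These were the 16 called genes and, uncalled, Plin3 on the higher side and Acacb, Elovl2, Fads2 and Agpat3 on the lower side. The called differences were mostly small: Dgat2, Acss2, Scd1 and Plin5 changed by more than 1 on the log2 scale, and the other 12 by 0.26 to 0.56 in size. Without IL-1β replicate 2 only 3 genes were called higher, and without control replicate 3 or IL-1β replicate 1 only 4. Scaling by total counts instead of TMM gave 5 higher and 11 lower among the 39, and 662 higher and 1007 lower among all genes where TMM gave 812 and 751.

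**Figure D1:**
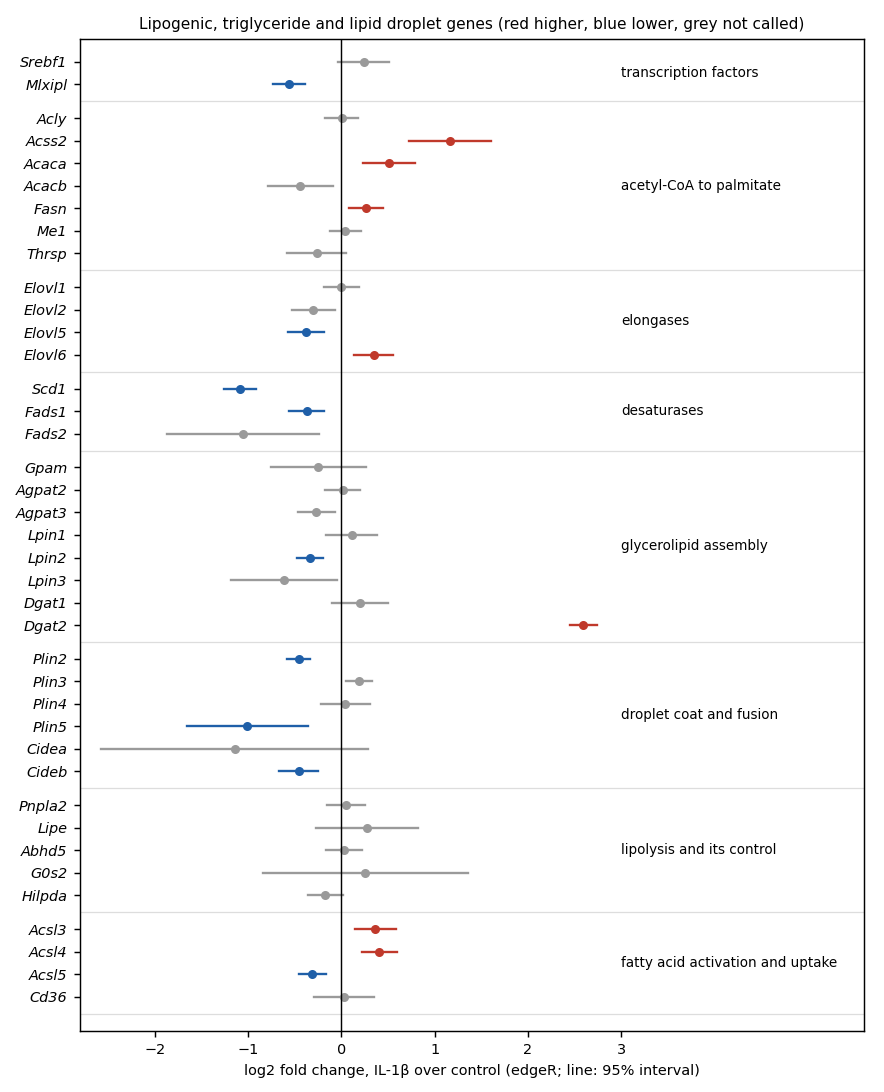
Log2 fold change (IL-1β over control, x axis) of the 39 tested genes, grouped by role; points are edgeR estimates and lines their 95% intervals. Dgat2 at 2.59 lies far to the right of every other gene. The tested lipolysis genes are all grey (not called), where 13.4% of all genes tested were called. Called genes of both directions occur among the elongases, the glycerolipid assembly genes and the acyl-CoA synthetases.

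**Figure D2:**
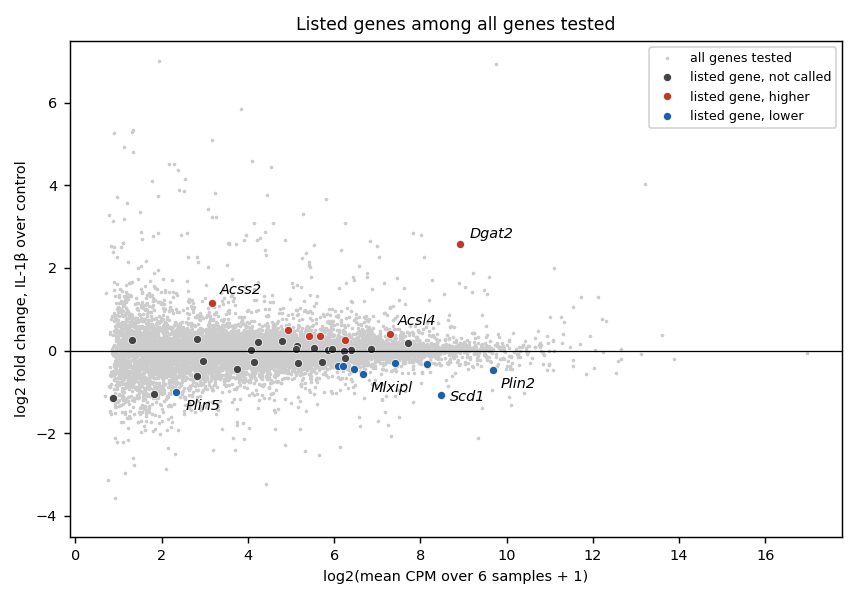
Log2 fold change (y axis) against log2 of the mean CPM plus 1 over the 6 samples (x axis) for all 11657 genes tested in light grey, with the 39 listed genes as larger points (red higher, blue lower, dark grey not called). Dgat2 ranked 61 of 11657 from the highest fold change, Scd1 ranked 220 from the lowest, and 4 genes fall outside the y axis, which runs from -4.5 to 7.5.

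Of the genes for the programme's own transcription factors, 1 was lower after IL-1β and 1 was not called. Srebf1, which encodes SREBP1, was at 21.9, 22.2 and 29.5 CPM in the controls and at 30.6, 26.9 and 29.2 CPM after IL-1β. Control replicate 3 lay within the IL-1β range, and the difference was not called (log2 fold change 0.24, 95% interval -0.032 to 0.51, adjusted p = 0.287). The 3′ end of Srebf1 overlaps Rai1 on the opposite strand, and whether counting used the strand is not given in the sources used here. Mlxipl (chr5:135106891-135138382, plus strand, GRCm38) encodes ChREBP, and its level was 118, 121 and 121 CPM in the controls against 74.0, 89.5 and 80.4 CPM after IL-1β. Every IL-1β sample was below every control, by 32.1% in the fit (log2 fold change -0.56, standard error 0.082, adjusted p = 1.61e-05). Mlxipl was also the only listed gene with a match to the sterol regulatory element TCACNCCAC in its promoter, out of 37 genes with a promoter in the RefSeq table used (GRCm38.p6, 250 bases before to 50 after each start site, either strand searched). Counted by gene, that motif was in 2.7% of the listed genes with a promoter and in 1.44% of all 27025 genes. With 37 genes, 1 match is close to the share over all genes. Another start site of the gene has the E-box CACGTG, the core of the sites that ChREBP and USF proteins bind, which 7.15% of promoters hold. The windows are chr5:135106711-135106810 and chr5:135089760-135089859 on the plus strand, with the matched letters in capitals.
Mlxipl, sterol regulatory element: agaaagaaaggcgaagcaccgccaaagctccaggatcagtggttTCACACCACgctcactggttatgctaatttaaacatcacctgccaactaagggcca
Mlxipl, E-box: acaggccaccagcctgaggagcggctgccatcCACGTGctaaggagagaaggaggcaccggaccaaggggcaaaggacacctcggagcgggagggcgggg

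Of the 7 genes on the way from acetyl-CoA to palmitate, 3 were higher after IL-1β and none was lower. Acss2, which makes acetyl-CoA from acetate, was at 4.79, 5.10 and 5.03 CPM in the controls and at 11.4, 10.1 and 11.9 CPM after IL-1β. The groups were well apart, with a 2.24-fold difference (log2 fold change 1.16, standard error 0.21, adjusted p = 0.000313). Acaca encodes acetyl-CoA carboxylase 1, the cytosolic enzyme that makes malonyl-CoA for synthesis, and was at 22.99, 20.8 and 29.2 CPM against 30.6, 39.3 and 33.6 CPM. All IL-1β samples exceeded all controls, although control replicate 3 came close (log2 fold change 0.51, standard error 0.13, adjusted p = 0.00995). Acacb, which encodes the mitochondrial carboxylase whose malonyl-CoA restrains fatty acid oxidation, was lower in every IL-1β sample, at 10.5 ± 0.868 CPM against 14.3 ± 0.770 CPM (SD, n = 3 each), but missed the threshold (log2 fold change -0.44, adjusted p = 0.094). Fasn, the fatty acid synthase gene, was at 69.3, 65.5 and 69.1 CPM in the controls and 84.8, 86.2 and 73.5 CPM after IL-1β. IL-1β replicate 3 was the nearest to the controls, and the difference of 19.9% only just passed (log2 fold change 0.26, standard error 0.087, adjusted p = 0.0468). Leaving out 1 sample ended the call of Acaca for control replicate 2 (adjusted p = 0.0721) and for IL-1β replicate 2 (adjusted p = 0.0982). The call of Fasn was lost without control replicate 2 or 3 or IL-1β replicate 1 or 2 (adjusted p from 0.0853 to 0.198), with DESeq2 (adjusted p = 0.0644), and with upper-quartile or total-count scaling (adjusted p = 0.0803 and 0.140). The remaining genes of this step overlapped between groups and were not called. Acly, the ATP citrate lyase gene, was at 83.3 ± 8.62 CPM against 83.5 ± 3.14 CPM, and Me1, whose malic enzyme supplies NADPH, at 113 ± 9.30 against 116 ± 5.93 CPM (SD, n = 3 each). Their 95% intervals of the log2 fold change, -0.18 to 0.18 and -0.12 to 0.21, both included 0. Thrsp, a lipogenic cofactor gene also called Spot 14, differed by -0.26 on the log2 scale (adjusted p = 0.323).

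The 120 bases before the annotated start of the called members of this step with a short CCAAT box are shown for Acss2 (chr2:155517923-155518042, plus strand) and Fasn (chr11:120824548-120824667, minus strand), since NF-Y bound to such boxes is known to act beside SREBP1 at lipogenic promoters. Capitals mark CCAAT or its reverse complement ATTGG, and in Fasn a pair of matches on opposite strands share letters. These letters are common, being found in 41.1% of all genes with a promoter. Among the called members with a promoter they were in 3 of 6 higher and 6 of 7 lower genes. Acaca, also higher in this step, had no match. Any part of the boxes in these differences was not tested.
Acss2 promoter: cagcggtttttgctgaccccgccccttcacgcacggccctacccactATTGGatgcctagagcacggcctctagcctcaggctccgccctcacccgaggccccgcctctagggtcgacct
Fasn promoter: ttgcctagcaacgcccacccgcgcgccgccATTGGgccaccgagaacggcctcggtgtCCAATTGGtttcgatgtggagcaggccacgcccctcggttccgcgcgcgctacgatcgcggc

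**Figure D3:**
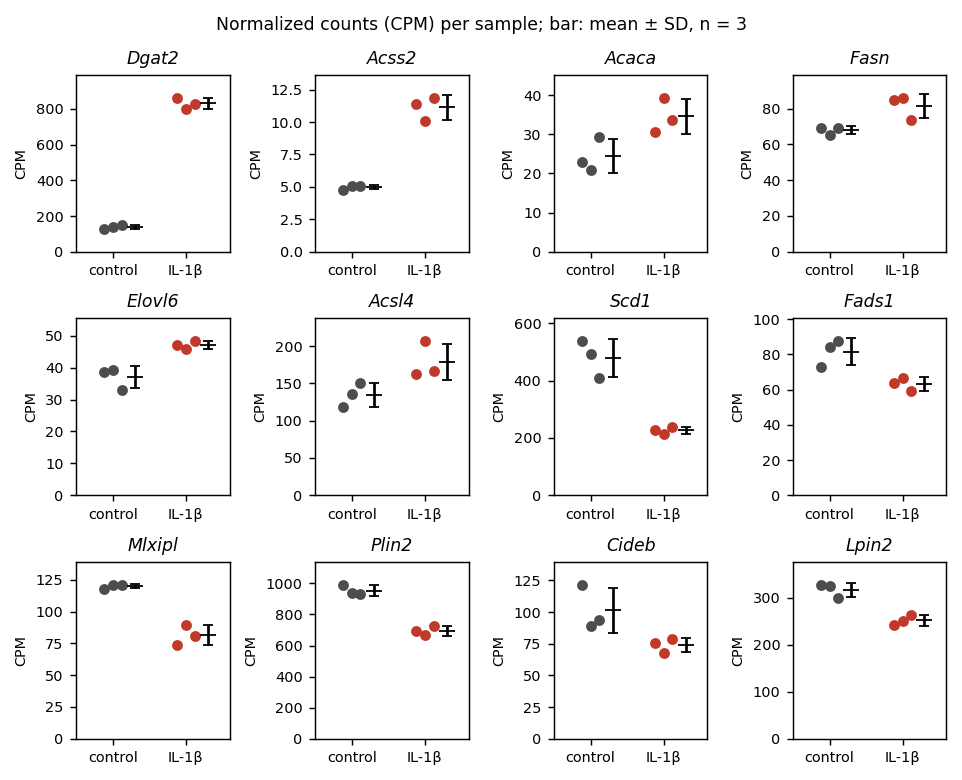
CPM (y axes, from 0) of 12 called genes in each of the 3 control and 3 IL-1β samples; the bar beside the points is the mean with its SD. The groups do not overlap in any of the 12 panels, with Dgat2 between 129 and 149 CPM in the controls and between 800.3 and 864 CPM after IL-1β.

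Of the tested elongases 1 was higher and 1 lower, and of the tested desaturases 2 were lower. Elovl6, the elongase that takes palmitate to stearate, was at 38.8, 39.3 and 33.0 CPM in the controls and 47.2, 45.8 and 48.3 CPM after IL-1β, and the groups did not overlap (log2 fold change 0.35, standard error 0.10, adjusted p = 0.0242). Elovl5, an elongase of polyunsaturated fatty acids, was at 68.8, 76.2 and 83.3 CPM against 54.5, 63.8 and 57.0 CPM, also without overlap (log2 fold change -0.38, standard error 0.094, adjusted p = 0.00641). Elovl2, which extends longer polyunsaturated chains, was lower in each IL-1β sample without passing the threshold (log2 fold change -0.30, adjusted p = 0.0803), which it passed with total-count scaling, and Elovl1, a widely expressed elongase of saturated chains, differed by -0.00073 on the log2 scale (95% interval -0.19 to 0.18), its 3′ end overlapping Cdc20 on the other strand. Elovl3 had 4, 11 and 2 counts in the controls and 6, 8 and 5 after IL-1β, too few to be tested. Scd1 (chr19:44394450-44407709, minus strand), the stearoyl-CoA desaturase that makes oleate and palmitoleate, had the lowest log2 fold change of the 16 called genes. It was at 538, 493 and 408 CPM in the controls and 229, 213 and 237 CPM after IL-1β. The lowest control was far above the highest IL-1β sample, and the level fell by 52.9% (log2 fold change -1.08, standard error 0.081, adjusted p = 1.69e-10). Fads1, a desaturase of polyunsaturated fatty acids, was at 73.0, 84.5 and 87.6 CPM against 63.6, 66.7 and 59.0 CPM, with the groups apart (log2 fold change -0.37, standard error 0.091, adjusted p = 0.00562). Its partner Fads2 was lower in every IL-1β sample, at 3.00, 4.38 and 2.82 CPM against 1.71, 1.06 and 2.14 CPM, but at this level the difference was not called (log2 fold change -1.06, adjusted p = 0.084), and it passed where only genes with at least 10 counts in every sample were tested. Scd2, the desaturase better known from brain and fetal tissue, had 8, 6 and 2 counts in the controls and 8, 12 and 7 after IL-1β and was not tested. Of these calls, that of Elovl6 was lost without control replicate 3 or any 1 of the IL-1β replicates (adjusted p from 0.0519 to 0.143) and with total-count scaling (0.0565), that of Elovl5 without IL-1β replicate 1 (0.061), and that of Fads1 without IL-1β replicate 3 (0.053). The call of Scd1 held in each of the 10 other fits with all samples and in each of the 6 fits with a sample left out.

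Among the genes that build triglyceride, 1 rose, 1 fell and 6 of 8 tested were not called. Dgat2 (chr7:99153663-99182713, minus strand) encodes one of the acyltransferases that turn diacylglycerol into triglyceride, the one tied to newly made fatty acids in liver. It was at 129, 137 and 149 CPM in the controls and 864, 800.3 and 830.2 CPM after IL-1β. The lowest IL-1β sample was several times the highest control, a 6.02-fold difference in the fit (log2 fold change 2.59, standard error 0.070, adjusted p = 5.99e-19, 95% interval 2.45 to 2.74). The log2 fold change stayed between 2.54 and 2.65 when each sample was left out in turn. Dgat1, which encodes the other, unrelated acyltransferase for the same step, was at 16.9, 14.8 and 17.8 CPM against 16.8, 20.1 and 19.97 CPM. Its groups overlapped, and its 95% interval of -0.10 to 0.50 lies wholly below that of Dgat2 (log2 fold change 0.20, adjusted p = 0.459). Lpin2, which encodes a phosphatidate phosphatase that makes diacylglycerol, was at 328, 324 and 299.8 CPM in the controls and 241, 250.3 and 264 CPM after IL-1β. It was lower in every IL-1β sample by a modest amount (log2 fold change -0.33, standard error 0.066, adjusted p = 0.000786). Its relatives Lpin1 and Lpin3 were not called, with log2 fold changes of 0.11 and -0.61 (adjusted p = 0.684 and 0.17). Gpam encodes the mitochondrial acyltransferase that starts glycerolipid synthesis, and was at 5.44, 9.66 and 6.95 CPM in the controls and 5.77, 6.33 and 6.50 CPM after IL-1β. The IL-1β samples lay within the control range, and the wide interval of -0.75 to 0.26 leaves moderate differences undetectable at this depth (adjusted p = 0.622). Of the lysophosphatidate acyltransferases, Agpat2 was at 57.0 ± 1.65 CPM against 57.5 ± 3.37 CPM and Agpat3 at 56.5 ± 2.46 CPM against 47.0 ± 3.83 CPM (SD, n = 3 each). Agpat3 was lower in every IL-1β sample, missed the threshold at an adjusted p of 0.0693, and passed it with upper-quartile or total-count scaling. Mogat1, a monoacylglycerol acyltransferase gene, had counts in 1 control (4) and 1 IL-1β library (3) and was not tested.

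Of the 6 tested droplet coat and fusion genes, 3 were lower after IL-1β and none was higher. Plin2 (chr4:86656565-86670059, minus strand), the perilipin that coats most droplets in hepatocytes, was at 992, 939 and 929 CPM in the controls and 691, 666 and 724 CPM after IL-1β. The highest IL-1β sample lay below the lowest control, and the level fell by 27.2% (log2 fold change -0.46, standard error 0.060, adjusted p = 3.49e-06). Plin3, a perilipin that is also found in the cytosol, was higher in every IL-1β sample, at 222 ± 3.37 CPM against 194 ± 9.13 CPM (SD, n = 3 each), but was not called (log2 fold change 0.19, adjusted p = 0.0604), and it passed with DESeq2, with limma on the authors' normalized values and where at least 10 counts in every sample were asked for. Plin5, which links droplets to mitochondria in oxidative tissues, was at 4.97, 6.71 and 4.63 CPM against 2.35, 2.30 and 3.44 CPM. The groups did not overlap at this low level (log2 fold change -1.01, standard error 0.31, adjusted p = 0.0323). The call was lost without control replicate 2 or IL-1β replicate 1 or 2 (adjusted p from 0.121 to 0.178) and with DESeq2 (0.0557). Plin4 was at 32.9 ± 3.50 CPM in the controls and 33.9 ± 5.93 CPM after IL-1β (adjusted p = 0.893), and its 3′ end overlaps Hdgfrp2 on the other strand. Cideb, a droplet fusion gene that also serves the lipidation of lipoproteins, was at 122, 89.3 and 93.4 CPM in the controls and 75.3, 67.8 and 78.9 CPM after IL-1β. Every IL-1β sample was lower than every control (log2 fold change -0.45, standard error 0.10, adjusted p = 0.00241). Its 3′ end overlaps Nop9 on the opposite strand, which had more counts and was also lower (log2 fold change -0.37, adjusted p = 0.00493), and reads of the pair cannot be told apart where counting ignored strand. Cidea passed the count filter only through its controls and was not called (adjusted p = 0.351), while Cidec, better known from fat tissue and steatotic liver, had 4, 4 and 4 counts in the controls and 6, 8 and 0 after IL-1β and was not tested. The promoter window of Plin2 (chr4:86670120-86670189, minus strand) is shown because it has, in capitals, a match to the NF-κB consensus followed by a CCAAT box, in the gene of this role with the smallest adjusted p. The consensus searched was GGGRNNYYCC, where R is A or G, Y is C or T and N is any base. The Plin2 letters match it as their reverse complement.
Plin2 promoter: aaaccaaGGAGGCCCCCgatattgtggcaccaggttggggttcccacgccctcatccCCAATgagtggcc

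None of the 5 tested lipolysis genes was called, where 13.4% of all genes tested were. At that share, 5 genes may well hold no call, so this is not a result about lipolysis. Pnpla2, which encodes the triglyceride lipase ATGL, was at 45.0, 47.5 and 41.2 CPM in the controls and 48.4, 44.3 and 46.3 CPM after IL-1β, so that the groups overlapped (log2 fold change 0.055, 95% interval -0.15 to 0.26, adjusted p = 0.812). Its coactivator gene Abhd5 was at 60.1 ± 2.84 CPM against 61.3 ± 6.05 CPM (SD, n = 3 each, 95% interval of the log2 fold change -0.16 to 0.22). Hilpda, an inhibitor of ATGL induced by hypoxia, was at 80.1 ± 3.20 CPM against 71.1 ± 7.87 CPM (log2 fold change -0.17, adjusted p = 0.265). The other ATGL inhibitor, G0s2, was close to the count filter of 0.948 CPM, at 0.938, 1.88 and 1.21 CPM in the controls and 0.748, 1.06 and 2.97 CPM after IL-1β. IL-1β replicate 3 alone exceeded the controls, the log2 fold change of 0.26 turned to -0.56 without it, and the interval of -0.84 to 1.35 is too wide to show either direction. Lipe, the hormone-sensitive lipase gene, was at 5.49 ± 1.75 CPM against 6.63 ± 0.627 CPM (adjusted p = 0.612). The 95% interval of its log2 fold change was wide, at -0.28 to 0.82. The 3′ end of Lipe overlaps 4732471J01Rik on the other strand. Pnpla3, a lipase-family gene of the droplet surface known for its link to fatty liver in people, had 0, 0 and 3 counts in the controls and 12, 5 and 4 after IL-1β. Each IL-1β library held more counts than each control, yet the gene failed the count filter, and without that filter its adjusted p was 0.208. Windows of 75 bases in the last 500 bases of each gene's transcript were sought in the transcripts of other genes. Pnpla3 alone of the 44 genes had any (7.51%, shared with Gm49513). Matches to the opposite strand were not searched. The promoter of Pnpla2 (chr7:141454998-141455057, plus strand) is printed as that of an uncalled gene that also matches the NF-κB consensus. Its letters, in capitals, differ from those of Plin2 and match the consensus as printed.
Pnpla2 promoter: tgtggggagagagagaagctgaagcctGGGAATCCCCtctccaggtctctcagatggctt

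The acyl-CoA synthetases, which activate fatty acids for further use, were called in all 3 listed cases and in opposite directions. Acsl3, the synthetase that moves to growing droplets, was at 40.8, 49.3 and 41.1 CPM in the controls and 63.2, 49.6 and 56.5 CPM after IL-1β. Control replicate 2 came within 1 CPM of the lowest IL-1β sample without overlap (log2 fold change 0.37, standard error 0.11, adjusted p = 0.022). Acsl4 (chrX:142317993-142390535, minus strand), which prefers arachidonate, was at 118, 136 and 151 CPM against 163, 207 and 167 CPM, with every IL-1β sample above every control (log2 fold change 0.41, standard error 0.092, adjusted p = 0.00273). Acsl5, a synthetase of endoplasmic reticulum and mitochondria, was at 179, 188 and 198 CPM in the controls and 149, 156 and 151 CPM after IL-1β. Every IL-1β sample was below every control (log2 fold change -0.31, standard error 0.070, adjusted p = 0.00262). The call of Acsl3 was lost without control replicate 1 or 3 or IL-1β replicate 1 or 3 (adjusted p from 0.051 to 0.16) and that of Acsl4 without IL-1β replicate 2 (0.0526). Cd36, the fatty acid uptake receptor, was at 17.3, 15.9 and 14.2 CPM in the controls and 13.6, 17.3 and 17.4 CPM after IL-1β. Its groups overlapped, and the 95% interval of its log2 fold change ran from -0.30 to 0.35 (log2 fold change 0.027, adjusted p = 0.952). The Acsl3 promoter (chr1:78657705-78657824, plus strand) holds a CCAAT box close to the start site, as those of Acss2 and Fasn do further upstream.
Acsl3 promoter: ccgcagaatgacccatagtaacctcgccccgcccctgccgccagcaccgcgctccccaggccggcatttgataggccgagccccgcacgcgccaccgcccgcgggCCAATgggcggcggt

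To compare related genes directly, their counts were divided within each library, a comparison that no scaling between libraries can alter. The 6 pairs were chosen after their values were seen, so the ratios are a description. Counts per gene do not depend on transcript length in this 3′ method, but the efficiency of capture can differ between genes, so a ratio is read here between groups and not as a ratio of molecules. The Dgat2 to Dgat1 ratio was 7.61, 9.21 and 8.36 in the controls and 51.5, 39.9 and 41.6 after IL-1β. It was 5.26 times higher by geometric means. The Fasn to Scd1 ratio was 0.129, 0.133 and 0.169 in the controls and 0.370, 0.405 and 0.310 after IL-1β. It was 2.52 times higher by geometric means, mostly through the fall of Scd1 (log2 fold change -1.08, against 0.26 for Fasn). The Acaca to Acacb ratio of the carboxylases was 1.58, 1.40 and 2.18 against 2.68, 4.06 and 3.20. The Elovl6 to Elovl5 ratio was 0.563, 0.515 and 0.396 against 0.867, 0.717 and 0.847, higher in every IL-1β sample than in any control. The Acsl4 to Acsl5 ratio was 0.659, 0.720 and 0.761 in the controls and 1.09, 1.33 and 1.10 after IL-1β. The Plin2 to Plin3 ratio of perilipins was 5.41, 4.75 and 4.63 in the controls and 3.17, 2.96 and 3.26 after IL-1β. No pair overlapped between groups, and no p-value is given, since the pairs were picked for their values.

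**Figure D4:**
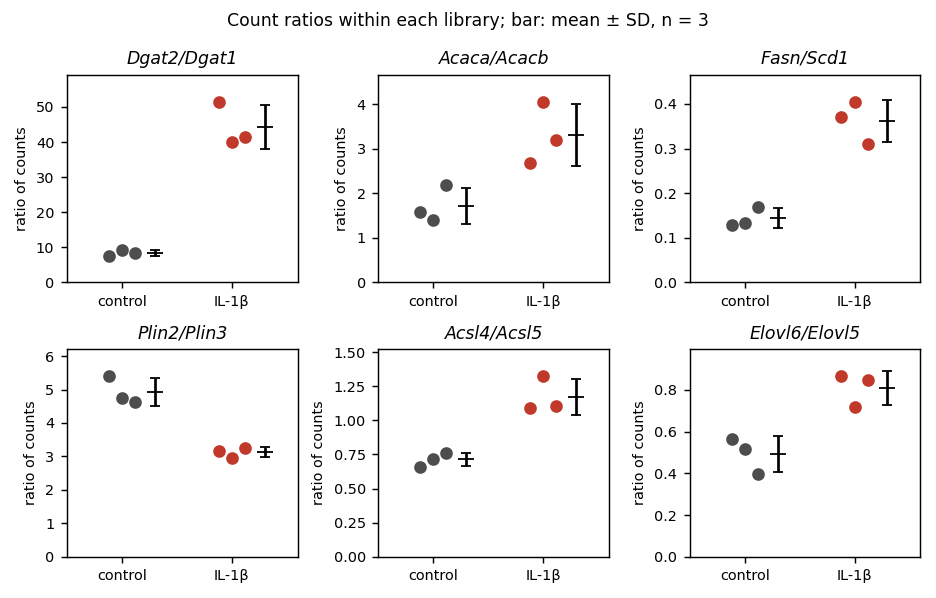
Ratio of the counts of paired genes within each library (y axes, from 0) for 3 control and 3 IL-1β samples; the bar beside the points is the mean with its SD. In all 6 panels the groups are apart, with the Plin2 to Plin3 ratio lower and the other 5 ratios higher after IL-1β.

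Other genes of the same pathways, 69 in a list drawn up with earlier results of these data known and all in the table, gave 58 tested genes, of which 8 were higher and 5 lower (22.4% called, against 13.4% of all genes), with a median log2 fold change of -0.062. In the carbon and NADPH supply, 4 of 6 tested genes were higher and none was lower. These were G6pdx and Pgd, dehydrogenases of the pentose phosphate pathway that reduce NADP, Pklr, the liver pyruvate kinase, and Mid1ip1, an activator of acetyl-CoA carboxylase. G6pdx rose from 5.80 ± 1.07 to 13.4 ± 0.566 CPM (SD, n = 3 each, log2 fold change 1.21, standard error 0.20, adjusted p = 9.55e-05) and Pgd from 518 ± 26.1 to 695 ± 21.1 CPM (log2 fold change 0.42, standard error 0.062, adjusted p = 1.63e-05). Pklr, a well known ChREBP target, rose by 0.77 on the log2 scale (adjusted p = 2.92e-05), and Mid1ip1 rose by 0.33 (adjusted p = 0.0136). Of 9 tested elongation and desaturation genes, the dehydratases Hacd2 and Hacd3, which serve each round of elongation, were higher by 0.75 and 0.60 (adjusted p = 2.03e-06 and 1.89e-07), and Fads3 was lower (-0.52, adjusted p = 0.00344). In the 12 tested genes of SREBP, LXR and carbohydrate response control, Pparg alone was called. Pparg, a nuclear receptor that drives fat storage, was at 8.07, 9.48 and 13.6 CPM in the controls and 3.63, 6.24 and 2.88 CPM after IL-1β, without overlap (log2 fold change -1.28, standard error 0.28, adjusted p = 0.00176). Scap, Insig1 and Insig2, which hold and release SREBPs, had log2 fold changes of 0.052, 0.041 and 0.021 and were not called. Among 9 tested genes listed as droplet proteins, Hsd17b13, a hepatocyte droplet enzyme, fell from 229.9 ± 16.2 to 107 ± 3.43 CPM (SD, n = 3 each, log2 fold change -1.11, standard error 0.073, adjusted p = 1.82e-11). The other 8 were not called. All 9 estimates were below 0, with a median of -0.082, while the 6 tested droplet coat and fusion genes had 2 above 0 and 4 below. The lipoprotein lipase gene Lpl and the synthetase Acsl1 were higher (0.64 and 0.41, adjusted p = 0.0245 and 0.0111), and the fatty acid transporter Slc27a2 was lower (-0.72, adjusted p = 0.00524). Of 11 tested glycerolipid assembly genes 1 was called, lower.

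Promoter letters were compared over the 37 genes with a RefSeq promoter, 13 of them among the 16 called. Cidea, Dgat1, Dgat2, Elovl3, Fads1, Scd1 and Scd2 had no entry. CCAAT was found in 21 of the 37 (56.8%, against 41.1% of all 27025 genes), namely in 3 of the 6 higher genes, whose sequences are those of Acss2, Fasn and Acsl3 above, and in 6 of the 7 lower genes. The GC box GGGCGG was in 25 of 37 (67.6%, against 38.2% of genes), 3 of them higher and 5 lower. The E-box CACGTG was in 6 of 37 (16.2%, against 8.09%), of which Elovl5, Lpin2, Mlxipl and Plin2 were lower, Lipe and Lpin3 were not called and none was higher. The NF-κB consensus was in 11 of 37 (29.7%, against 9.55% of genes), with Lpin2, Plin2 and Plin5 lower, 8 genes not called and none higher. Srebf1 is among those 8, with the match directly before 1 of its start sites (chr11:60220628-60220687, minus strand), printed here with the consensus in capitals.
Srebf1 promoter: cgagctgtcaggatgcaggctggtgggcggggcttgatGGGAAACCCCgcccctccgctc
The C/EBP element TTGCNNAA was in 4 of 37 (10.8%, against 12.2%) and the hypoxia element ACGTGC in 6 of 37 (16.2%, against 6.68%), which shares letters with the E-box in Mlxipl. Both strands of 300 bases around each start site were searched for every motif, and the genes of the list were set beside all genes as a description, without a test. All genes here were not limited to those tested in these cultures. The 37 listed genes had 51 promoters, and all 27025 genes had 32851. A gene counted where any of its promoters matched, so the shares also depend on promoters per gene. A match says only that the letters are present.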

How the data were processed

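RNA of 6 cultures (3 control, 3 IL-1β) was measured. Per the labels, libraries were made with an oligo-dT QuantSeq 3′ kit and read as single ends of 75 bases. The authors aligned them with Bowtie2 (builds mm10 and GRCm38 in the submitters' processing notes) and deposited raw read counts per gene, the main data here. The counting tool, its use of strand and its treatment of reads matching several genes are not given in the sources used here. The authors also deposited log2 values of TMM-normalized counts, used as an alternative, and a fold ratio and an unadjusted p-value of their own comparison, which were not used.

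Genes were filtered with filterByExpr (0.948 CPM in at least 3 samples, which kept 11657), scaled by TMM and compared with the quasi-likelihood test of edgeR 4.0.16 in R 4.3.3, without covariates. The standard error is the size of the log2 fold change divided by the square root of F. Adjusted p-values are Benjamini-Hochberg values over all genes tested. The steps were tested on simulated counts, with log2 changes of 0.75 and 1.5 planted in genes above the lowest counts. Of these changes 76% and 98% were called, and 2.79% of all calls were of unchanged genes. Smaller changes, the size of most called differences here, were not simulated. Alternatives were DESeq2 1.42.0, limma 3.58.1 on log2(CPM + 1) and on the deposited log2 values, other scalings and filters, a block for replicate number, a fit without Rn45s, and fits without each sample. No p-value is given for the ratios, since their pairs were chosen after their values were seen. Promoters are RefSeq sequences of GRCm38.p6 matched by gene identifier or symbol. CPM are given in every sample for called genes and for 14 genes that stand for the steps of the pathway, and other members by group mean or range. Of the related genes, the 12 called with the smallest adjusted p are named. The members and lists were chosen with earlier results of these data known.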

Additional observations from a re-analysis of the deposited data

How the results depend on the processing

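Dgat2, Scd1, Acss2, Mlxipl, Plin2, Lpin2, Cideb and Acsl5 were called in the same direction in all 10 alternative fits with all samples and all 6 fits without a sample. The alternatives with all samples called 15 to 18 of the listed genes, and 14 to 16 of those were among the 16 reported. With a sample left out, 3 to 6 were called higher (7 with all samples) and 7 to 9 lower. Scaling by total counts called 8 related pathway genes lower instead of 5, and moved the all-gene median to -0.055 (log2) and the share of higher calls from 52.0% to 39.7%. Directions were followed for the 16 reported genes and, of the uncalled genes, for Srebf1, Gpam, Dgat1, Pnpla2, G0s2 and Cd36 only. Among the genes followed, the directions that turned were all of uncalled genes. Cd36 was at 0.027 with TMM, at -0.0022 with upper-quartile scaling, at -0.026 with total counts and at -0.045 to 0.14 with a sample left out. Over the same omissions Gpam ran from -0.42 to 0.0090, Pnpla2 from -0.00044 to 0.11 and G0s2 from -0.56 to 0.59. The cause of these turns was not tested. Of the other comparisons for single genes, 212 with all samples and 106 with a sample left out kept direction and side of the threshold, and 5 and 20 lost their call.

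Whether the shared replicate numbers pair the samples was not settled. Deviations of the same-numbered samples from their group means correlated at 0.075, 0.028 and -0.0050, and 2 of 3 controls correlated best with their own number. Such correlations over all genes tested cannot tell whether same-numbered cultures share an animal or a preparation. With the replicate number as a block, 17 genes were called, the 16 reported and Plin3. Elovl3, Scd2, Mogat1, Cidec and Pnpla3, with at most 12 counts in any library, failed the count filter, and without it their adjusted p ran from 0.208 to 0.963.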

Other observations

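Some listed genes lie within 100 kb of a relative. Fads1, Fads2 and Fads3 lie together on chromosome 19, and their log2 fold changes were -0.37, -1.06 and -0.52, with Fads1 and Fads3 called. Plin4 and Plin5 lie 1798 bases apart on chromosome 17 and differed in direction of estimate, at 0.045 and -1.01. Hsd17b11 and Hsd17b13, 12376 bases apart on chromosome 5, were at -0.10 and -1.11, of which the second alone was called.

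Mogat2 lies 36370 bases from Dgat2 on chromosome 7 and had 5, 6 and 6 counts in the controls and 14, 17 and 16 after IL-1β. Its groups did not overlap, its log2 fold change was 1.501 and its adjusted p in edgeR was 0.0727. It passed the count filter only through the IL-1β samples. Of the other genes within 300 kb of Dgat2, Uvrag and Rps3 had enough counts to be tested and were not called, at -0.19 and 0.15 (adjusted p = 0.385 and 0.191).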
